A study of Mus musculus with 10 samples.

Results

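The 48 genes described here code for proteins that carry a cell through G2 and M phase, the steps in which replicated chromosomes are packed, attached to a spindle and pulled apart. They were taken by name from a list of mitosis genes. That rule uses no measured value, though the list was drawn up with earlier results of these data known. All 48 were found among the 49315 genes of the count tables. By the role of the protein they comprised 5 genes of chromosome packing and the proliferation mark Mki67, 8 cyclins and regulators of the kinase CDK1, and 13 mitotic kinases and their partners. The others were 2 partners of the anaphase-promoting complex, 6 centromere and kinetochore genes, 11 genes of spindle motors and microtubule proteins, 2 genes of cytokinesis and the nuclear envelope gene Lbr.

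Entry into mitosis is driven by CDK1 bound to cyclin B, and the Polo and Aurora kinases then build the spindle and check its attachment to chromosomes. The anaphase-promoting complex, switched on by CDC20, marks cyclin B for destruction and lets sister chromatids part. Most of these genes are transcribed only late in the cell cycle, so their transcripts are abundant in dividing cell populations and scarce in resting ones. Microglia, the resident macrophages of the brain, divide in large numbers in the early postnatal brain and rarely in the healthy adult brain. Neutrophil precursors, which are not microglia, also divide.

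RNA was measured in microglia of wild-type C57BL/6 mice, taken from brain and sorted by flow cytometry into cells with (CD11c+) and without (CD11c-) CD11c on their surface. CD11c is the integrin chain encoded by Itgax. The groups were P5 CD11c+ and P5 CD11c- (postnatal day 5, 3 libraries each) and 9-mo CD11c+ and 9-mo CD11c- (9 months, 2 libraries each), and the comparison that the design names is CD11c+ against CD11c- at each age. Amplification with SMART-Seq v4, a low-input kit, is named for the 9-month libraries only, so age and library preparation cannot be told apart. Whether replicates came from separate animals is not stated in the labels, so p-values measure only the spread between these libraries, which may be technical. In bulk RNA, fewer cells of a type and less RNA per cell cannot be told apart.

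Library totals ranged from 11892082 to 25483573 counts except in P5 CD11c+ replicate 2, which held 2619610. That library stood apart. It had 23033 genes at 1 CPM (count after scaling to a library total of 1000000) or more against 12762 to 14735 in the others, and it correlated across genes at r = 0.80 with its own replicates, which correlated with each other at 0.996. Counts of members that rest on it are given with and without it. Itgax was at 250.2, 49.2 and 145 CPM in P5 CD11c+ and 33.1, 61.9 and 29.4 CPM in P5 CD11c-, where the groups overlapped through replicate 2. At 9 months it was at 27.98 and 20.7 against 5.80 and 3.21 CPM. Homeostatic microglia markers were present in all groups. The 9-mo CD11c- libraries also held neutrophil, monocyte and eosinophil markers. Markers of border-associated macrophages were highest in P5 CD11c+ and were present at lower levels in the other groups. Values are given beside the results below.

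Promoters of late cell-cycle genes are known for a short element, the cell-cycle genes homology region with the core TTTGAA, and for CCAAT boxes, which nuclear factor Y binds. They are shown because promoter sequence is a property that the choice of members and the counts did not use. RefSeq start sites of GRCm38.p6 were available for 42 of the 48 genes, with windows from 250 bases before to 50 bases after the start. Searched on both strands, TTTGAA (or TTCAAA) was in a window of 30 of the 42 members (71.4%), against 20.1% of 26983 other genes. CCAAT (or ATTGG) was in 33 members (78.6%) against 41.0% of the others, and at least 2 copies were in 26 members (61.9%) against 13.2%. Both motifs stood in 1 window in 61.9% of the members and 7.89% of the other genes. A copy of TTTGAA can overlap a CCAAT box by its outer bases, and none did in the stretches shown. A match is a description of letters, not of binding.

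The stretches below are the 150 bases before the start, read 5′ to 3′ on the strand of the gene, with TTTGAA and CCAAT copies of either strand in capitals. Cdk1 (the mitotic kinase), Top2a (topoisomerase II, which untangles DNA), Cdc20 and Ube2c (the activator and a ubiquitin-conjugating enzyme of the anaphase-promoting complex), Hmgb2 (a DNA-bending chromatin protein) and Lbr (the lamin B receptor) were chosen as carriers of both motifs. G2e3 (a ubiquitin ligase of G2 and M phase) and Psrc1 (a spindle microtubule protein) were chosen after their values were seen, because they did not differ between the 9-month subsets beyond the threshold. On the minus strand lay Cdk1 at chr10:69352913-69353062, Top2a at chr11:99024190-99024339, Cdc20 at chr4:118437344-118437493 and Lbr at chr1:181842402-181842551. On the plus strand lay Ube2c at chr2:164769779-164769928, Hmgb2 at chr8:57511693-57511842, G2e3 at chr12:51348080-51348229 and Psrc1 at chr3:108383654-108383803.
Cdk1: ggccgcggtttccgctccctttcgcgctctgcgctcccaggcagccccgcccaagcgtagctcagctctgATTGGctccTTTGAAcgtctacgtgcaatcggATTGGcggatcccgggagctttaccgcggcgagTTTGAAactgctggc
Top2a: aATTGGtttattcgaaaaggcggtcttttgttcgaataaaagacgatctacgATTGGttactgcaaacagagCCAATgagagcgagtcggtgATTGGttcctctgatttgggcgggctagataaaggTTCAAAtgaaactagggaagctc
Cdc20: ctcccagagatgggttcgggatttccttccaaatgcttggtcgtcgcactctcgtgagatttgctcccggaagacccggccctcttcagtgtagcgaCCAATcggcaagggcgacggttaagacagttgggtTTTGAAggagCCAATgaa
Ube2c: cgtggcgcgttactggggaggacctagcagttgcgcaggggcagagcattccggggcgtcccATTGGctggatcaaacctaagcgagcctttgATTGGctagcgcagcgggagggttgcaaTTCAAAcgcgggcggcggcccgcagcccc
Hmgb2: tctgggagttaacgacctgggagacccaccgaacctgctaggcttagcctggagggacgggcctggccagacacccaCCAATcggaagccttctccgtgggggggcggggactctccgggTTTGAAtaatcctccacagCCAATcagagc
Lbr: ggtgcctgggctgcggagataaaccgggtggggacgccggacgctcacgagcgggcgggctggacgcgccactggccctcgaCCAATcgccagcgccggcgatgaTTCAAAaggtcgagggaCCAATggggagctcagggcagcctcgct
G2e3: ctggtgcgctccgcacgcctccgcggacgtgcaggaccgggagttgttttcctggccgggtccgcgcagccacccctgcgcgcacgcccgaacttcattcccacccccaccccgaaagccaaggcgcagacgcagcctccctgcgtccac
Psrc1: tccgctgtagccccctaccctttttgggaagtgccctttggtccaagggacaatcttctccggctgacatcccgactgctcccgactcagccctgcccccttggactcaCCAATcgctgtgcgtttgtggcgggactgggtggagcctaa
The G2e3 stretch held no copy of either motif and the Psrc1 stretch held a CCAAT box without TTTGAA, whereas the other 6 held both. Since those 6 were chosen as carriers of both motifs, the contrast followed from the choice. The windows of Birc5, Nusap1, Nuf2 and Tacc3 also held neither motif. These genes were called lower in 9-mo CD11c+ by the test described below (log2 fold changes -4.29, -3.86, -3.19 and -2.39).

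The summed level of the 48 genes differed most between the subsets of the 9-month mice. It was 777 and 701 CPM in 9-mo CD11c+ and 4155 and 3764 CPM in 9-mo CD11c-, with the P5 libraries in between. The P5 CD11c+ libraries summed to 2166, 1893 and 1889 CPM and the P5 CD11c- libraries to 2345, 1772 and 1410 CPM. The P5 subsets overlapped, and all 6 P5 libraries lay above 9-mo CD11c+ and below 9-mo CD11c-. Mitochondrially encoded transcripts took 7.15%, 20.7% and 27.97% of the P5 CD11c- counts and at most 2.79% of any other library. With those counts left out of the totals, the P5 CD11c- sums were 2525, 2233 and 1958 CPM and the P5 CD11c+ sums 2219, 1907 and 1943 CPM, still overlapping.

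**Figure D1:**
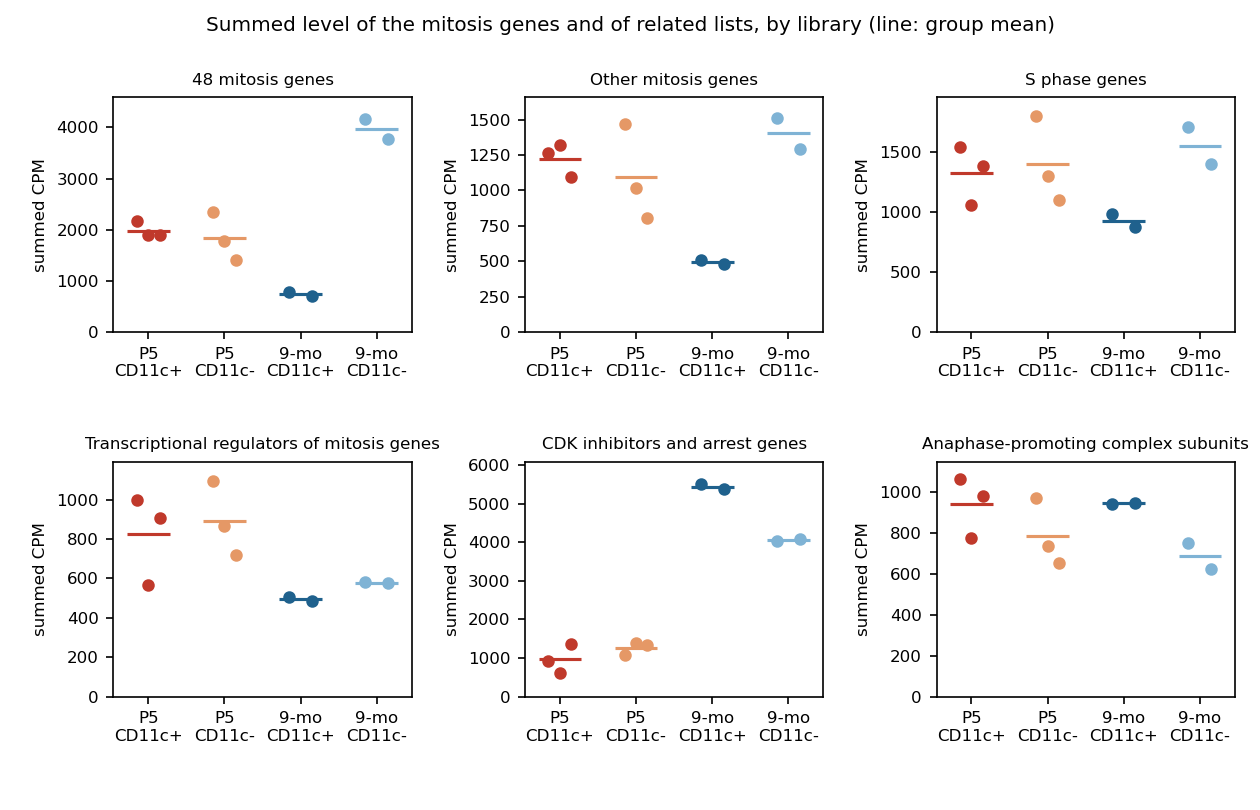
Summed CPM of the 48 mitosis genes and of 5 related gene lists, on linear axes that start at 0, with a point for each library and a line for the group mean. For the 48 genes the 9-mo CD11c+ points lie at 777 and 701 CPM and the 9-mo CD11c- points at 4155 and 3764 CPM, with the P5 subsets overlapping between them.

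Hmgb2 made up a large share of these sums. It took 7.76%, 14.9% and 10.3% of the summed level in P5 CD11c+, 10.2% to 13.98% in P5 CD11c-, 17.9% and 18.4% in 9-mo CD11c+, and 27.96% and 31.3% in 9-mo CD11c-. Without Hmgb2 the sums were 638 and 572 CPM in 9-mo CD11c+, 2993 and 2586 CPM in 9-mo CD11c-, and 1213 to 2106 CPM at P5, so the order of the groups at 9 months did not rest on it. Mki67, whose protein coats mitotic chromosomes, had the opposite pattern. Its mean share was 8.72% in P5 CD11c+ and 9.30% in P5 CD11c- against 1.03% and 1.59% in the 9-month subsets. In 9-mo CD11c+, Hjurp, Lbr and Tubb4b also took large mean shares of 15.2%, 14.1% and 9.41%. Means of these 3 genes in P5 CD11c+ were 1.08, 0.889 and 0.799 times those in 9-mo CD11c+. Per kilobase of exon, Hmgb2 was the highest member in 9-mo CD11c- at 390 CPM per kb, followed by Cks2 at 255 CPM per kb and Tubb4b at 90.3 CPM per kb. In P5 CD11c- the same scale gave Hmgb2 69.6, Cks2 45.6 and Tubb4b 27.7 CPM per kb, while the lowest member there was Ttk at 1.62 CPM per kb.

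**Figure D2:**
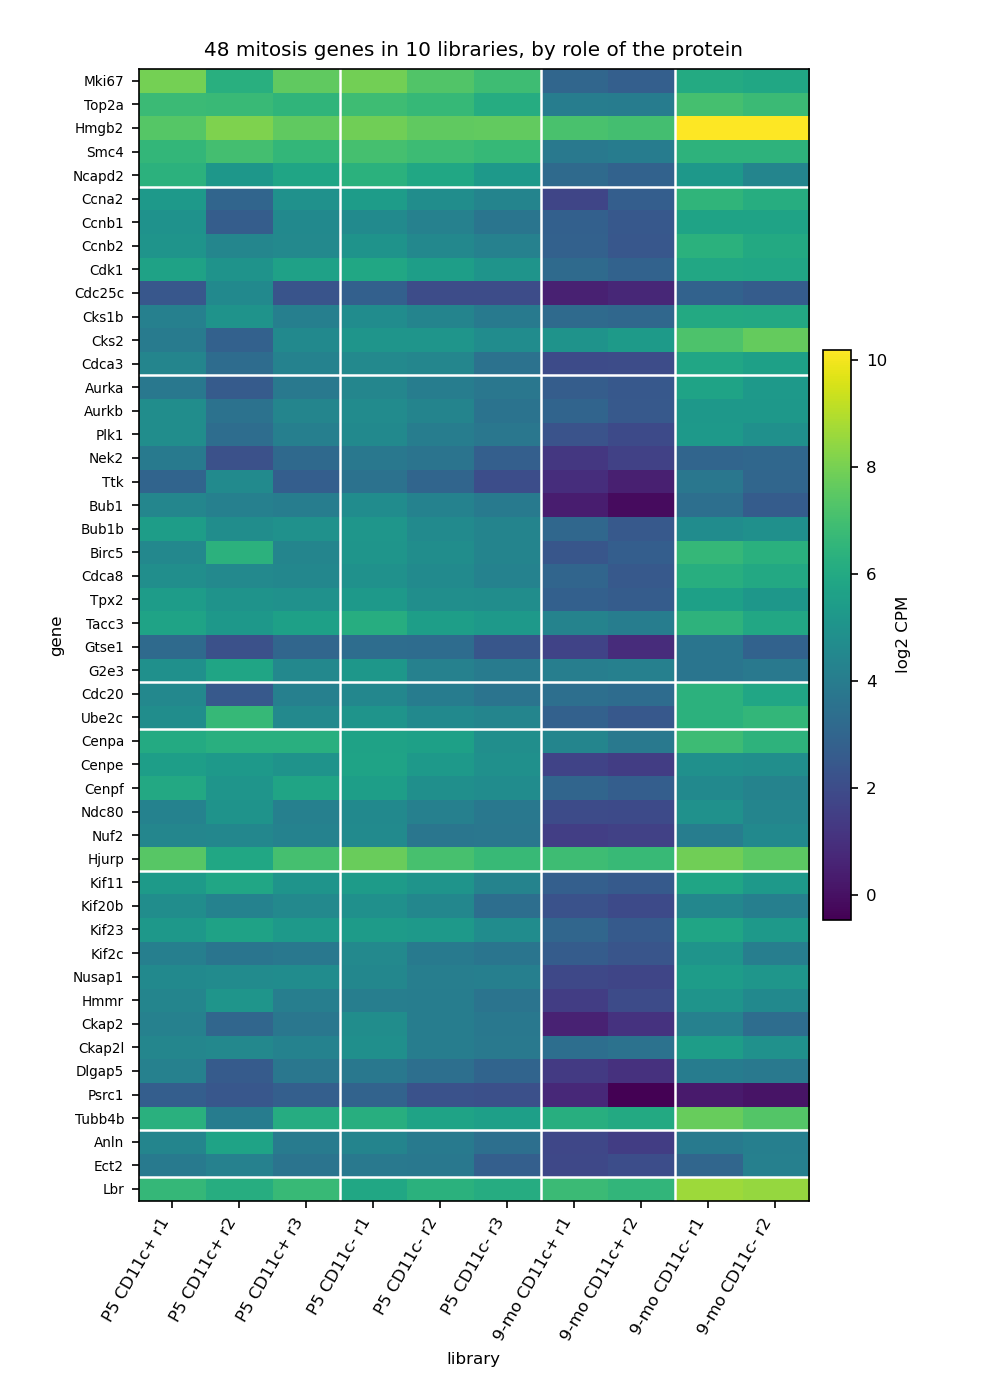
Log2 CPM of each of the 48 genes (rows, separated by role) in the 10 libraries (columns, r for replicate), from dark (low) to yellow (high). The 9-mo CD11c+ columns are the darkest for most genes, the Hmgb2 cells of 9-mo CD11c- are the brightest at 1161 and 1178 CPM, and P5 CD11c+ replicate 2 departs from its replicates in both directions.

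At P5, no member passed the test between CD11c+ and CD11c- microglia. The test was edgeR's quasi-likelihood test with Benjamini-Hochberg adjustment over all genes and a threshold of 0.05, and here it called 46 of 15410 genes higher in CD11c+ (0.299%) and 0 lower. The 48 log2 fold changes had a median of -0.06, beside 0.06 over all genes, and ran from -1.17 for Cks2 to 1.05 for Cdc25c, with a lowest adjusted p of 0.562 (edgeR). At an unadjusted p under 0.05 (edgeR), 1 member was higher and 1 lower, beside 668 and 409 of 15410 genes. DESeq2 and limma-voom also called 0 members, beside 395 genes higher and 160 lower with DESeq2 and 75 and 0 with limma-voom. The median standard error (SE) of a member's log2 fold change was 0.34, with a range of 0.21 to 0.73. Small differences were therefore not detectable in this comparison, and some large ones did not pass either. Of 14 border-associated macrophage markers 8 passed, but Mrc1 at 3.35 and Ms4a7 at 6.31 on the log2 scale did not (adjusted p = 0.0525 and 0.0557, edgeR). The count of 0 members thus does not show equal levels.

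Mki67 was at 252.5, 77.9 and 196 CPM in P5 CD11c+ and at 248, 159 and 118 CPM in P5 CD11c-, and the groups overlapped. Top2a was at 113, 109 and 91.6 CPM against 118, 102 and 71.5 CPM, again overlapping. Cdk1 was at 51.7, 32.1 and 49.7 CPM against 59.0, 45.9 and 33.7 CPM. For 3 members every P5 CD11c+ library lay above every P5 CD11c- library, against a background of 10.3% of all genes at a mean of 1 CPM or more. Those were Nusap1 (a spindle assembly protein), Cenpa (the centromeric histone H3 variant) and Hmmr (a spindle pole protein). Cks2, a small subunit that binds CDK1, was lower in every P5 CD11c+ library, as were 3.13% of genes. It was at 15.7, 7.25 and 24.1 CPM against 34.0, 34.2 and 26.6 CPM.

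Replicate 2 of P5 CD11c+ had a sum close to that of its replicates but other proportions. Birc5 (survivin, of the chromosomal passenger complex) was at 82.8 CPM there and at 23.2 and 21.0 CPM in the other P5 CD11c+ libraries. Ube2c was at 104 CPM against 27.3 and 23.4 CPM, and Cdc25c, the phosphatase that activates CDK1, was at 24.4 CPM against 5.47 and 5.03 CPM. Anln (anillin, of the cleavage furrow) was at 52.3 CPM against 21.2 and 15.6 CPM. Other members were low in that library, among them Ccnb1 (cyclin B1) at 6.49 CPM against 31.6 and 24.1 CPM, and Cdc20 at 5.73 CPM against 22.7 and 18.2 CPM. These 6 genes were singled out after their values were seen. Without that library the other libraries' spread was smaller and the test called 801 genes higher and 700 lower of 15841 (5.06% and 4.42%). Of the members it still called 0, with a median log2 fold change of 0.01, a range of -0.83 to 0.67 and a lowest adjusted p of 0.0577 (edgeR). At an unadjusted p under 0.05, 2 members were higher and 5 lower.

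Markers of other cell types differed between the P5 subsets. The 14 markers of border-associated macrophages summed to 17950, 14020 and 15300 CPM in P5 CD11c+ and to 1669, 1437 and 824.5 CPM in P5 CD11c-, and 8 of them were called higher (all 14 without P5 CD11c+ replicate 2). None of those markers was at 0 in all libraries of a group. Neutrophil precursor markers summed to 76.8, 57.3 and 92.6 CPM in P5 CD11c+ and to 262, 1356 and 630.1 CPM in P5 CD11c-, and Elane, a primary granule protease gene, was at 0 in all P5 CD11c+ libraries. Homeostatic microglia markers summed to 12810 to 18020 CPM in P5 CD11c+ and to 15820 to 28490 CPM in P5 CD11c-. Their part in the levels of the mitosis genes was not tested.

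At 9 months, 46 of the 48 members were lower in CD11c+ than in CD11c- microglia, and 0 were higher. The background was 2869 of 15740 genes lower (18.2%) and 14.8% higher. The median log2 fold change of the members was -3.09, beside 0.02 over all genes, and the lowest was -4.41 for Ccna2 (cyclin A2). Members of all 8 role groups were called lower, with group medians from -3.68 for the anaphase-promoting complex partners and -3.33 for the cyclins and CDK1 regulators to -2.25 for Lbr. For 46 members both 9-mo CD11c+ libraries lay below both 9-mo CD11c- libraries, as for 20.5% of genes at a mean of 1 CPM or more. The exceptions were G2e3, which was higher in both CD11c+ libraries (as 44.5% of genes were), and Psrc1, which overlapped.

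**Figure D3:**
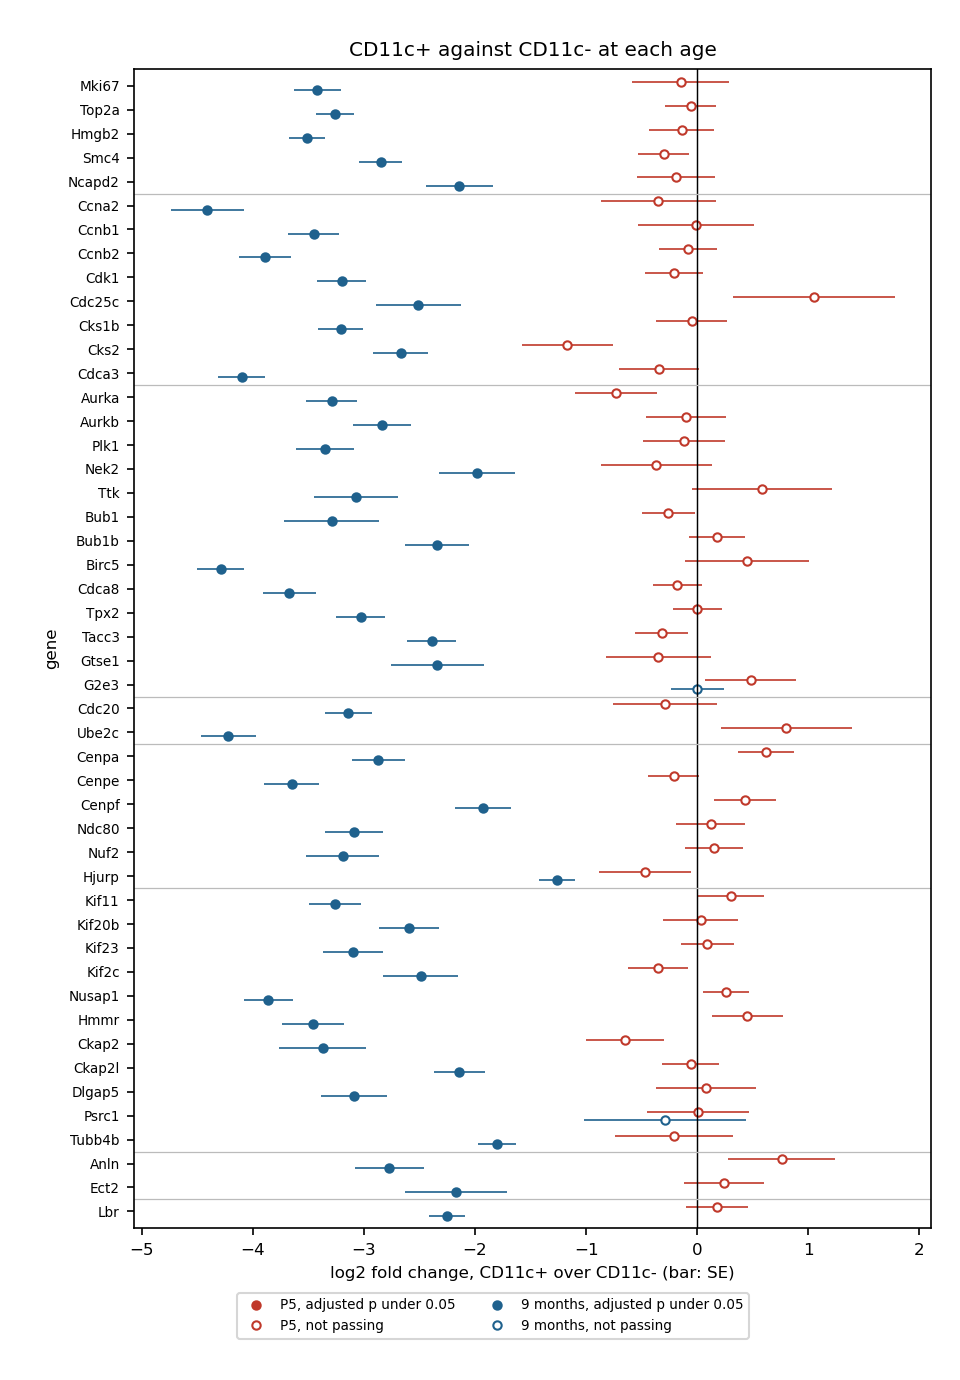
Log2 fold change of CD11c+ over CD11c- for each of the 48 genes at P5 (red) and at 9 months (blue), with bars of 1 SE and filled points for an adjusted p under 0.05 (edgeR). The 9-month points lie between -4.41 and 0.00 with all but G2e3 and Psrc1 filled, and the P5 points lie between -1.17 and 1.05 with none filled.

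Among the chromosome packing genes, Hmgb2 (chromosome 8, 57511907 to 57515999, plus strand, in the deposited coordinates) was at 139 and 129 CPM in 9-mo CD11c+ and at 1161 and 1178 CPM in 9-mo CD11c-. Its log2 fold change was -3.51 with an SE of 0.16 (adjusted p = 3.35e-05, edgeR). Mki67 (chromosome 7, 135689784 to 135716361, minus strand) was at 8.36 and 6.88 CPM against 67.2 and 58.9 CPM, a log2 fold change of -3.42 ± 0.21 (SE, adjusted p = 7.06e-05, edgeR). Top2a was at 16.8 and 16.2 CPM against 132 and 112 CPM, a log2 fold change of -3.26 ± 0.17 (adjusted p = 4.61e-05, edgeR). Smc4, a condensin subunit, was at 14.6 and 16.3 CPM against 85.3 and 85.8 CPM and fell by 2.85 on the log2 scale (adjusted p = 9.08e-05, edgeR). None of these 4 genes overlapped between the subsets.

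All 8 cyclins and CDK1 regulators were lower in 9-mo CD11c+. Ccnb1 was at 7.10 and 5.56 CPM in 9-mo CD11c+ and at 53.4 and 53.2 CPM in 9-mo CD11c-, with a log2 fold change of -3.45 ± 0.23 (SE, adjusted p = 0.0001, edgeR). Ccnb2 (cyclin B2) was at 7.30 and 5.47 CPM against 82.0 and 65.1 CPM, with a log2 fold change of -3.89 ± 0.23 (adjusted p = 6.78e-05, edgeR). Cdk1 was at 9.42 and 7.44 CPM against 61.1 and 58.2 CPM, with a log2 fold change of -3.20 ± 0.22 (adjusted p = 0.000109, edgeR). Cdca3, which promotes entry into mitosis, was at 3.96 and 4.10 CPM against 58.4 and 49.0 CPM, and its log2 fold change was -4.10 ± 0.21 (adjusted p = 4e-05, edgeR). Cks1b, which like Cks2 binds cyclin-dependent kinases, was at 9.26 and 8.59 CPM against 64.6 and 62.2 CPM, a log2 fold change of -3.21 ± 0.20 (adjusted p = 6.84e-05, edgeR). Each of these 5 genes was separated without overlap.

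Of the 13 mitotic kinases and partners, 12 were lower in 9-mo CD11c+. Birc5 was at 5.26 and 6.67 CPM in 9-mo CD11c+ and at 101 and 80.1 CPM in 9-mo CD11c-, with a log2 fold change of -4.29 ± 0.21 (SE, adjusted p = 3.93e-05, edgeR). Its partner in the passenger complex, the kinase gene Aurkb, was at 7.93 and 5.68 CPM against 37.3 and 37.9 CPM, with a log2 fold change of -2.84 ± 0.26 (adjusted p = 0.00036, edgeR). Plk1, the Polo kinase gene, was at 4.87 and 3.80 CPM against 39.6 and 29.3 CPM, with a log2 fold change of -3.35 ± 0.26 (adjusted p = 0.000175, edgeR). The remaining called genes of the group (Aurka, Nek2, Ttk, Bub1, Bub1b, Cdca8, Tpx2, Tacc3 and Gtse1) had log2 fold changes between -3.67 and -1.98. G2e3 was at 17.03 and 18.4 CPM against 12.8 and 14.4 CPM. Its CPM did not overlap, while its log2 fold change after scaling was 0.00 ± 0.24 (adjusted p = 0.997, edgeR).

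Both partners of the anaphase-promoting complex were lower in 9-mo CD11c+. Cdc20 was at 10.7 and 10.04 CPM in 9-mo CD11c+ and at 84.0 and 58.3 CPM in 9-mo CD11c-, a log2 fold change of -3.14 ± 0.21 (SE, adjusted p = 0.000107, edgeR). Ube2c was at 7.18 and 5.51 CPM against 84.6 and 96.6 CPM, a log2 fold change of -4.22 ± 0.25 (adjusted p = 6.41e-05, edgeR). Exon bases of Ube2c overlap those of Tnnc2 on the opposite strand over 22.8% of its length, and the strand setting of the counting was not given, so reads there could come from either gene. Subunits of the complex itself are kept as a separate list. Of 16, 4 were called higher and 2 lower, and the median was 0.00. Anapc13 fell by 0.96 on the log2 scale (adjusted p = 0.0109, edgeR), while Anapc7 and Anapc2 rose by 0.79 each (adjusted p = 0.0195 and 0.02, edgeR).

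All 6 centromere and kinetochore genes and 10 of the 11 spindle genes were lower in 9-mo CD11c+. In the first group, Cenpa was at 20.8 and 14.6 CPM in 9-mo CD11c+ and at 116 and 85.9 CPM in 9-mo CD11c-, and Cenpe, a kinesin that moves chromosomes, was at 3.22 and 2.78 CPM against 30.1 and 28.1 CPM. The smallest difference in that group was that of Hjurp, the chaperone that loads Cenpa, at 119 and 106 CPM against 234 and 184 CPM. In the spindle group, Nusap1 was at 3.65 and 3.42 CPM against 43.6 and 35.7 CPM, a log2 fold change of -3.86 ± 0.22 (SE, adjusted p = 5.88e-05, edgeR). Tubb4b, a beta-tubulin gene, was at 75.1 and 64.2 CPM against 212 and 165 CPM, a log2 fold change of -1.80 ± 0.17 (adjusted p = 0.000442, edgeR). Psrc1, the exception, was at 1.73 and 0.7265 CPM against 1.24 and 1.09 CPM, which overlapped. In 9-mo CD11c- it was the lowest member per kilobase, at 0.346 CPM per kb. The cytokinesis genes Anln (3.49 and 2.78 CPM against 14.9 and 17.8 CPM) and Ect2, an activator of RhoA at the cleavage furrow (3.65 and 4.15 CPM against 8.33 and 18.1 CPM), were also called lower. Lbr was at 114 and 94.9 CPM against 398 and 368 CPM, a log2 fold change of -2.25 ± 0.16 (adjusted p = 0.000143, edgeR).

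Other genes of the cell cycle were counted by list. Of 54 other mitosis genes, 50 were lower and 1 higher in 9-mo CD11c+, with a median log2 fold change of -2.90. Spc24 and Knl1, both of the outer kinetochore, fell by 4.22 and 4.15 on the log2 scale (adjusted p = 5.7e-05 and 6.52e-05, edgeR), and Prc1, which bundles the central spindle, by 3.41 (adjusted p = 6.79e-05, edgeR). Of 40 S phase genes, 27 were lower and 0 higher, with a median of -1.34. Rrm2, a ribonucleotide reductase subunit, was at -4.38 ± 0.18 (SE, adjusted p = 2.73e-05, edgeR). Of 22 transcriptional regulators of mitosis genes, 10 were lower and 0 higher, and E2f2, a transcription factor of the cell cycle, fell by 3.41 (adjusted p = 0.000113, edgeR). Of 10 G1 cyclins and their kinases, 5 were lower and 2 higher. Of 14 tested CDK inhibitors and arrest genes, 6 were lower and 1 higher, with Gadd45a and Cdkn2d, which codes for the inhibitor p19, at -4.25 and -3.20 (adjusted p = 2.73e-05 and 3.99e-05, edgeR).

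Most markers of neutrophils, monocytes, eosinophils and basophils moved in the same direction at 9 months. The neutrophil precursor markers summed to 1371 and 826 CPM in 9-mo CD11c+ and to 69880 and 82220 CPM in 9-mo CD11c-, and all 11 tested were called lower in CD11c+. Ngp, a secondary granule protein gene, alone was at 684 and 405 CPM against 31740 and 42250 CPM. Markers of mature neutrophils summed to 1965 and 1512 CPM against 79320 and 118900 CPM, and those of monocytes to 452 and 340.3 CPM against 13280 and 15550 CPM. Markers of eosinophils and basophils summed to 64.5 and 59.2 CPM against 1617 and 1715 CPM. Of 10 neutrophil markers 9 were called lower in CD11c+ and 1 did not pass. Of 10 monocyte markers 9 were lower and 1 higher (3.74 on the log2 scale). Of 10 eosinophil and basophil markers 9 were lower and 1 higher (1.03). The gene Chil3 was in both the neutrophil precursor and the monocyte lists. None of these markers was at 0 in both libraries of a 9-month group. The 16 homeostatic microglia markers moved the other way, from 64580 and 58540 CPM in CD11c+ to 18940 and 16740 CPM in CD11c-, and all 16 were called higher in CD11c+. Of 10 dendritic cell markers, 6 were called higher in CD11c+ and 0 lower. Border-associated macrophage markers summed to 2165 and 2034 CPM in 9-mo CD11c+ and to 646 and 546.5 CPM in 9-mo CD11c-. Of the 14, 13 were called higher in CD11c+ and 1 lower. The part of these cells in the mitosis gene levels was not tested. With libraries scaled to the homeostatic markers, 47 members were called lower and the median was -4.51, beside -1.39 over all genes. Under that scaling 9899 of 15740 genes were called lower and 72 higher.

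**Figure D4:**
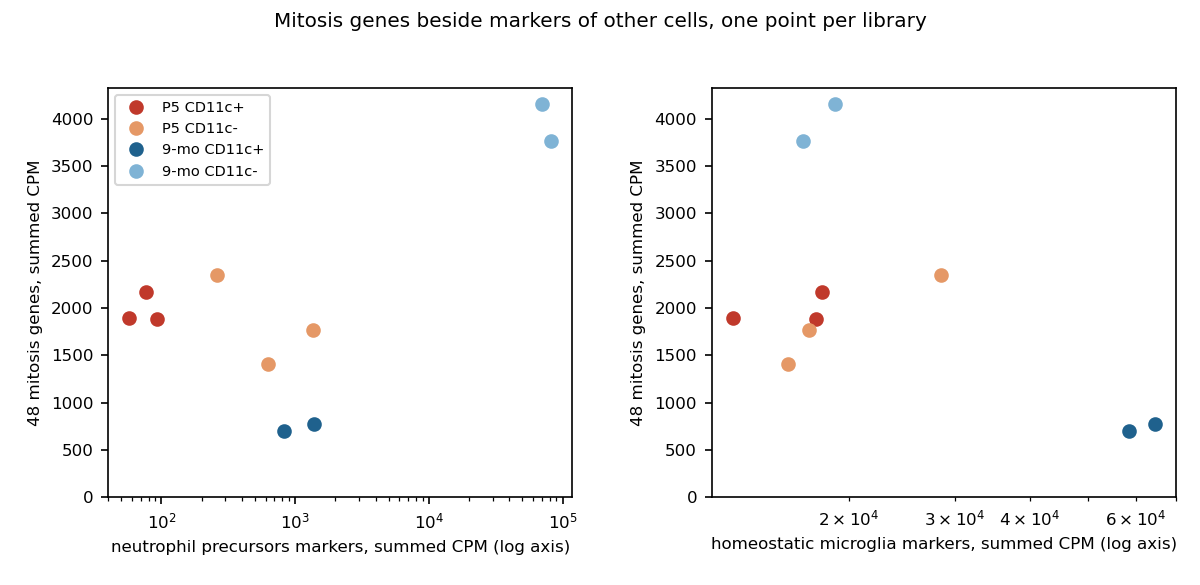
Summed CPM of the 48 mitosis genes (linear axis from 0) against summed CPM of neutrophil precursor markers (left, log axis) and homeostatic microglia markers (right, log axis), with a point for each library. The 9-mo CD11c- points stand apart at 69880 and 82220 CPM of precursor markers, whereas the P5 and the 9-mo CD11c+ points all lie at or below 1371 CPM of those markers and span 701 to 2345 CPM of the mitosis genes.

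Between ages, the members were compared within each subset. These comparisons describe libraries that differ in age and in preparation at once. In CD11c+ microglia, 19 members were higher at P5 than at 9 months and 0 were lower, beside 7.95% of 16387 genes called higher and 10.8% called lower. The median log2 fold change of P5 over 9 months was 1.73, beside -0.13 over all genes. For 41 members all 3 P5 libraries lay above both 9-month libraries, as for 31.7% of genes at a mean of 1 CPM or more. Marker sums of the CD11c+ groups differed too, with border-associated macrophage markers at 14020 to 17950 CPM at P5 and 2034 and 2165 CPM at 9 months. Homeostatic microglia markers summed to 12810 to 18020 CPM at P5 and to 64580 and 58540 CPM at 9 months, and 10 of 16 were called lower at P5 (15, and 1 higher, without P5 CD11c+ replicate 2). Markers of neural progenitors and neurons summed to 45.5, 187.8 and 51.8 CPM at P5 and to 3.61 and 5.81 CPM at 9 months. Neutrophil precursor markers summed to 57.3 to 92.6 CPM at P5 and to 1371 and 826 CPM at 9 months. Of 10 tested, 6 were called lower at P5 (9 without P5 CD11c+ replicate 2) and 0 higher. Mature neutrophil markers summed to 372 to 539 CPM at P5 and to 1965 and 1512 CPM at 9 months, with 7 of 10 called lower. The part of these markers in the difference was not tested.

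Mki67 had the largest of these differences, from 8.36 and 6.88 CPM at 9 months to 252.5, 77.9 and 196 CPM at P5, a log2 fold change of 3.89 ± 0.61 (SE, adjusted p = 0.0182, edgeR). Bub1, a spindle checkpoint kinase gene, was at 1.30 and 0.897 CPM at 9 months and at 21.6, 18.3 and 16.8 CPM at P5, a log2 fold change of 3.47 ± 0.52 (adjusted p = 0.018, edgeR). Cenpe rose from 3.22 and 2.78 CPM to 46.2, 38.6 and 32.8 CPM, by 3.08 ± 0.36 on the log2 scale (adjusted p = 0.0162, edgeR). All P5 libraries lay above the 9-month libraries for these 3 genes. Top2a, Smc4, Nusap1, Kif11 (a plus-end motor that separates spindle poles) and Cenpf (of the outer kinetochore) had log2 fold changes between 2.05 and 2.23. Of the 8 genes in the cyclin group, only Cdk1 passed, at 1.77 ± 0.35 (adjusted p = 0.0281, edgeR). Ccnb1 at 1.09 ± 0.69 and Ccnb2 at 1.40 ± 0.39 did not pass (adjusted p = 0.284 and 0.0578, edgeR). Plk1 at 1.46 (adjusted p = 0.112), Aurkb at 0.93 (0.209), Birc5 at 2.20 (0.0899), Cks1b at 0.71 (0.27), Cdc20 at -0.04 (0.97), Hmgb2 at 0.06 (0.908), Tubb4b at -0.95 (0.305) and Lbr at -0.79 (0.11) did not pass either, by the same edgeR test.

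The count of members called between ages in CD11c+ depended on single libraries. Without P5 CD11c+ replicate 2, 42 members were higher at P5 and 1 (Cks2) was lower, but 32.7% of 15846 genes were then called higher and 31.9% lower. Mki67 then had a log2 fold change of 4.64 ± 0.20 (SE, adjusted p = 2.76e-05, edgeR). The 5 members that did not pass without that library were Hmgb2, G2e3, Hjurp, Tubb4b and Lbr. With any of the other 4 libraries left out in place of it, no member and no gene passed the same edgeR test. At an unadjusted p under 0.05, 11 to 25 members were then higher at P5 and at most 1 lower, and the members' median was between 1.49 and 1.70. DESeq2 on all 5 libraries called 34 members higher and 1 lower, beside 3316 of 16387 genes higher and 2030 lower.

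In CD11c- microglia the direction differed by gene. At P5, 3 members were higher than at 9 months, 31 were lower and 14 did not pass, beside 26.7% of 16281 genes called higher and 26.4% called lower. The median log2 fold change was -0.95, beside 0.08 over all genes. The 3 higher members were Mki67 (0.99 ± 0.24 SE, adjusted p = 0.00945, edgeR), Bub1 (0.82 ± 0.27, adjusted p = 0.032, edgeR) and Psrc1 (1.77 ± 0.43, adjusted p = 0.00939, edgeR). The fit of all 10 libraries called 0 members higher and 23 lower, beside 2180 and 2257 of 19555 genes. None of these 3 passed there (edgeR). With the replicate number as a block 2 members were higher and 25 lower, beside 3085 and 3159 of 16281 genes. Bub1 and Psrc1 did not pass in that fit. With 1 library left out in turn 2 to 4 were higher, and Mki67 did not pass without 9-mo CD11c- replicate 1, nor Bub1 without P5 CD11c- replicate 1 or 2 or 9-mo CD11c- replicate 2. Mki67 was at 248, 159 and 118 CPM at P5 and at 67.2 and 58.9 CPM at 9 months, without overlap. All 8 genes of the cyclin group and both anaphase-promoting complex partners were lower at P5, whereas both cytokinesis genes, Smc4 at -0.01 ± 0.18 and Cenpe at 0.00 ± 0.21 did not pass.

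Cks2 and Hmgb2 had the largest differences in that direction. Cks2 was at 34.0, 34.2 and 26.6 CPM at P5 and at 149.5 and 204 CPM at 9 months, a log2 fold change of -2.96 ± 0.25 (SE, adjusted p = 0.000101, edgeR). Hmgb2 was at 239, 191 and 197 CPM against 1161 and 1178 CPM, a log2 fold change of -2.94 ± 0.24 (adjusted p = 8.99e-05, edgeR). Lbr was at 59.7, 81.9 and 71.0 CPM against 398 and 368 CPM, a log2 fold change of -2.86 ± 0.26 (adjusted p = 0.000123, edgeR). Cdc20 was at 22.5, 16.3 and 12.6 CPM against 84.0 and 58.3 CPM, a log2 fold change of -2.50 ± 0.20 (adjusted p = 9.13e-05, edgeR). No P5 library reached a 9-month library for these 4 genes. Ube2c, Birc5, Tubb4b and Cdca8 (borealin, of the passenger complex) had log2 fold changes from -2.27 to -1.95, and Ccnb1, Ccnb2 and Cks1b from -2.09 to -1.97. Plk1, Aurkb, Cdk1 and Top2a had smaller ones, from -1.44 to -0.79, and each passed.

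All 3 P5 CD11c- libraries lay below both 9-mo CD11c- libraries for 21 members and above them for 7, as for 20.4% and 48% of genes at a mean of 1 CPM or more. The neutrophil precursor markers summed to 262, 1356 and 630.1 CPM in P5 CD11c- and to 69880 and 82220 CPM in 9-mo CD11c-, and the mitochondrial share was 7.15% to 27.97% against 0.223% and 0.387%. Neither was tested as a part of the difference. Scaling to library totals alone left 4 members higher and 20 lower at P5, with a median of -0.47, and scaling to the homeostatic markers left 4 higher and 22 lower. Of 16281 genes, the first called 5759 higher and 2646 lower and the second 4914 and 2784.

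**Figure D5:**
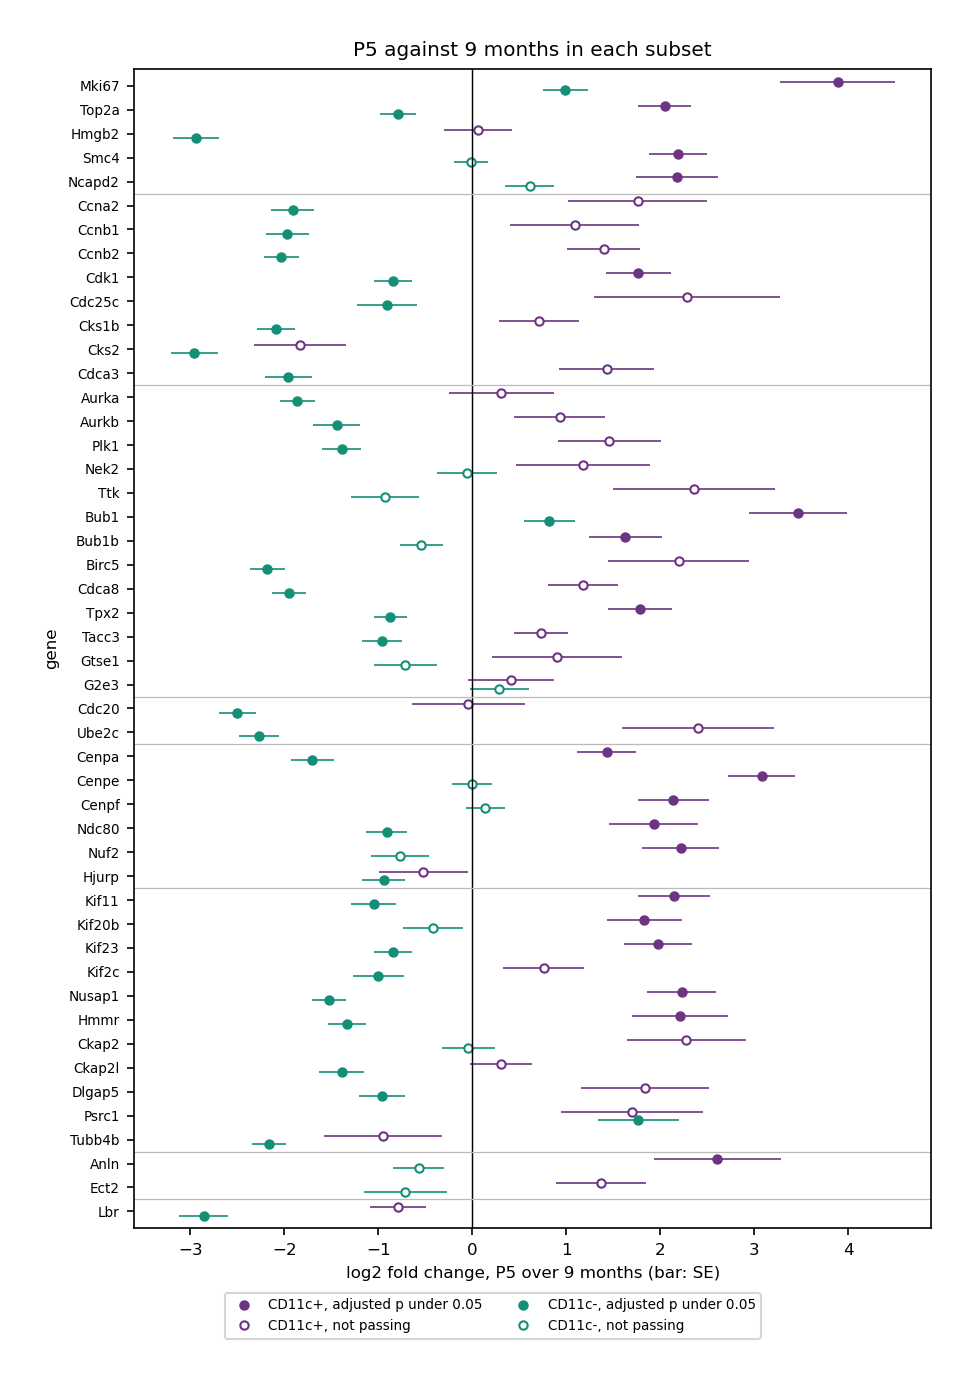
Log2 fold change of P5 over 9 months for each of the 48 genes in CD11c+ (purple) and CD11c- (green) microglia, with bars of 1 SE and filled points for an adjusted p under 0.05 (edgeR). CD11c+ points run from -1.83 to 3.89 and CD11c- points from -2.96 to 1.77, and age and library preparation cannot be told apart in either.

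The change of the CD11c difference with age was tested as an interaction in a fit of all 10 libraries, in which a negative value means that CD11c+ lay lower relative to CD11c- at 9 months than at P5. All 48 values were negative, with a median of -2.87, beside -0.06 over all genes, and 22 members passed. Of 19555 genes 1.56% passed in that direction and 0.302% in the other. Nusap1 changed by -3.91 ± 0.36 (SE, adjusted p = 0.012, edgeR), and the separate fits of the ages gave log2 fold changes of 0.26 at P5 and -3.86 at 9 months. Top2a changed by -2.99 ± 0.39, Ccnb2 by -3.63 ± 0.47 and Hmmr by -3.64 ± 0.43, each with an adjusted p of 0.013 (edgeR). Cdca8, Cenpe, Kif11 and Kif23 (a kinesin of the central spindle) changed by -3.30, -3.24, -3.32 and -2.96 at the same adjusted p. Mki67 at -3.13 ± 0.73 and Ccnb1 at -3.32 ± 0.81 did not pass (adjusted p = 0.0683 and 0.0751, edgeR). G2e3 at -0.21 and Psrc1 at -0.12 were closest to 0.

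That count also rested on single libraries. Without P5 CD11c+ replicate 2, 46 members passed, all but G2e3 and Psrc1, beside 10.3% of 18348 genes lower and 8.76% higher. Without P5 CD11c- replicate 2 the count was 9, beside 57 of 20022 genes lower and 10 higher. Without P5 CD11c- replicate 3, or without any of the 4 libraries of 9-month mice, 0 members passed (edgeR), while 39 to 41 were lower at an unadjusted p under 0.05 and the median was between -2.81 and -2.69. DESeq2 on all 10 libraries called 42, beside 1649 of 19555 genes lower and 764 higher. A kit effect that differs between the subsets would enter this difference too, and it cannot be told apart from age. Of the related lists, 26 of 54 other mitosis genes, 6 of 40 S phase genes, 4 of 22 transcriptional regulators, 1 of 15 CDK inhibitors and arrest genes, 1 of 10 G1 cyclins and kinases and 0 of 16 anaphase-promoting complex subunits passed, all as lower. Without P5 CD11c+ replicate 2 these were 47 other mitosis genes, 22 S phase genes, 8 transcriptional regulators, 5 CDK inhibitors and arrest genes, 4 G1 cyclins and kinases and 0 subunits, with 2 regulators and 1 G1 gene as higher.

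The same lists were counted in the other comparisons. At P5 0 genes of the 6 lists passed between subsets (edgeR), and without replicate 2 of P5 CD11c+ 1 S phase gene was lower and 1 G1 gene passed in each direction. Between ages in CD11c+, 14 other mitosis genes were higher at P5 and 0 lower (47 and 3 without that replicate), with Aspm, which organises spindle poles, at 3.59 ± 0.57 on the log2 scale (SE, adjusted p = 0.019, edgeR). Foxm1, a transcription factor that activates many mitosis genes, was higher at P5 by 3.72 ± 0.57 (adjusted p = 0.0181, edgeR). Of the 15 CDK inhibitors and arrest genes 5 were lower and 2 higher at P5 (6 and 4 without that replicate), and the antiproliferative gene Btg2 fell by 5.16 (adjusted p = 0.0162, edgeR). Without that replicate Aspm was at 3.68, Foxm1 at 4.39 and Btg2 at -4.59, and each passed (edgeR). The 15 CDK inhibitors and arrest genes summed to 612 to 1393 CPM in the P5 libraries. They summed to 5507 and 5383 CPM in 9-mo CD11c+ and to 4045 and 4090 CPM in 9-mo CD11c-. In CD11c-, Btg2 was lower at P5 by 3.77 ± 0.40 (adjusted p = 0.000201, edgeR), and 8 genes of that list were lower and 3 higher. The 9-month subsets, which had the lowest and the highest mitosis gene sums, thus both had higher sums of these arrest genes than any P5 library. Gene by gene the list was mixed, with a median P5 over 9-month log2 fold change of -0.33 in CD11c+ and -0.86 in CD11c-. Without P5 CD11c+ replicate 2 the CD11c+ median was 0.08. Age and library preparation cannot be told apart in these sums.

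The motif content of the windows is set beside the members' differences here. At 9 months the median log2 fold change of CD11c+ over CD11c- was -3.12 for the 30 members with TTTGAA and -2.93 for the 12 without it, and -3.20 for the 33 with CCAAT and -2.77 for the 9 without. Birc5 at -4.29 was the lowest of the members without TTTGAA in its window, and Ube2c at -4.22 the lowest of those with it. The ranges overlapped, from -4.22 to -1.26 with TTTGAA and from -4.29 to 0.00 without.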

How the data were processed

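RNA-seq was made from 10 libraries of sorted microglia. The deposited tables hold whole-number counts of reads for each gene, not normalized, with exon coordinates and exon length, per the file headers. Per the submitters' processing notes the tools were Trimmomatic 0.36, STAR 2.5.2b and Subread 1.5.2. What genome build, strand setting and multimapper rule were used is not given in the sources used here. The deposited start and end of 44 of the 48 members equal those of GENCODE M21 on GRCm38, which also gave the symbols. Pseudogenes of Ccnb1, Ccnb2 and Tubb4b exist, so reads of these genes may have been split.

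CPM are counts scaled to a library total of 1000000, and CPM per kb divides by the deposited exon length. Comparisons used edgeR 4.0.16 in R 4.3.3 (filterByExpr, TMM scaling, quasi-likelihood F-test, Benjamini-Hochberg adjustment over all genes tested, threshold 0.05), fitted on the groups compared, or on all 10 libraries for the interaction. All 48 members passed the filter on low counts in each comparison. SEs were derived from the F statistics. DESeq2 1.42.0, limma-voom (limma 3.58.1), other scalings, no filter, a replicate block and leaving out each library were alternatives. The procedure was tested on simulated data with a coefficient of variation of 0.245 between replicates. In it 8.7% to 42.9% of the 2-fold changes were recovered, depending on the comparison. Each main fit of the data had a larger coefficient. It was 0.273 at 9 months, 0.302 between ages in CD11c-, and 0.614, 0.636 and 0.684 in the fits that include P5 CD11c+. The simulation thus does not cover their spread. Members and lists were chosen with earlier results of these data known. Folds were named for at most 8 called members per direction with the smallest p and for 14 fixed members, and others named were chosen after their values were seen. For each related list at most 3 genes with the smallest p were named, and for each marker list at most 3 with the highest mean CPM. Number of per-sample columns left unused: 0. Deviations of library pairs of the same replicate number correlated at 0.47, 0.11 and -0.41 at P5 and at 0.09 at 9 months. At P5 pairs of unlike numbers ran from -0.48 to 0.47. With 2 libraries in a group the deviations mirror each other, so the 9-month value was bound to repeat. These values cannot decide whether libraries were paired. No pairing was assumed, and the replicate block is given as an alternative.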

Additional observations from a re-analysis of the deposited data

Results flagged for a closer look

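For 22 of the 48 members the CD11c+ to CD11c- difference at 9 months differed from that at P5 by the interaction test (edgeR, adjusted p under 0.05), and for each of them CD11c+ lay lower relative to CD11c- at 9 months. The changes of the log2 fold change were as follows. Among chromosome packing genes they were Top2a -2.99, Hmgb2 -3.13 and Smc4 -2.33. Among the cyclin and CDK1 group they were Ccnb2 -3.63, Cdk1 -2.82, Cks1b -2.90 and Cdca3 -3.61. Among the kinases and partners they were Plk1 -3.07, Bub1 -2.82, Birc5 -4.41, Cdca8 -3.30 and Tpx2 -2.83, and the enzyme gene of the anaphase-promoting complex gave Ube2c -4.70. Among centromere and kinetochore genes they were Cenpa -3.28, Cenpe -3.24, Ndc80 -2.95 and Nuf2 -3.15. Among spindle genes they were Kif11 -3.32, Kif23 -2.96, Nusap1 -3.91 and Hmmr -3.64, and the cytokinesis gene gave Anln -3.24. Ube2c and Birc5, with the largest values, were also 2 of the genes that stood high in P5 CD11c+ replicate 2, at 104 and 82.8 CPM. Without that library 46 members passed, without P5 CD11c- replicate 2 the number was 9, and without P5 CD11c- replicate 3 or any 9-month library it was 0 (39 to 41 lower at an unadjusted p under 0.05, edgeR). With the replicate number as a block 5 passed, beside 32 of 19555 genes lower and 0 higher.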

How the results depend on the processing

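The 46 lower members at 9 months were 46 or 47 under every alternative except the fit of all 10 libraries (41), and the count at P5 was 0 under all of them. In CD11c+, the 19 members that differed between ages became 35 with DESeq2, 46 with scaling to homeostatic markers, 8 without a filter and 32 in the fit of all 10 libraries, and 0 to 43 with 1 library left out. The 22 members of the interaction became 42 with DESeq2, 34 with limma-voom, 37 with the RLE size factors, 47 with homeostatic scaling, and 0 to 46 with 1 library left out. With the replicate number as a block the counts were 12 and 5, and the block changed no other count by more than 1.5 times (0 at P5, 46 at 9 months and 27 for the ages in CD11c-). Between ages in CD11c-, 23 to 35 members passed under all alternatives, against 34. Leaving out mitochondrial transcripts, chosen after seeing the data, left 0, 46, 19, 34 and 20 members called. At P5 the members' median of -0.06, with 21 of 48 above 0, became 0.43 with 44 above 0 under homeostatic scaling and 0.13 with 31 above 0 under library totals alone, where the median of all genes was 0.54 and 0.26. Between ages in CD11c+, homeostatic scaling put all 48 members above 0, Cks2 included, which was at -1.83 before it. That scaling called 9520 of 16387 genes higher at P5 and 131 lower. The block called 840 and 939 of 16387 genes there. Without a filter these were 586 and 158 of 33905 genes, and in the fit of all 10 libraries 2291 and 2186 of 19555. For the interaction homeostatic scaling called 7032 of 19555 genes lower and 13 higher. There limma-voom called 428 genes lower and 98 higher, and the RLE factors 521 and 102. The signs of single genes turned as follows. At P5 limma-voom gave Ccnb1 0.13, Aurkb 0.02 and Birc5 -0.12. Library totals alone gave Mki67 0.02, Top2a 0.14, Ccnb1 0.16, Ccnb2 0.10, Plk1 0.05, Aurkb 0.07, Cks1b 0.14 and Hmgb2 0.08. Homeostatic scaling gave Mki67 0.30, Top2a 0.45, Ccnb1 0.40, Ccnb2 0.41, Cdk1 0.25, Cdc20 0.13, Plk1 0.32, Aurkb 0.35, Cks1b 0.52, Hmgb2 0.40, Smc4 0.23 and Tubb4b 0.19. No filter gave Ccnb1 0.04. With 1 library left out, the P5 values ran from -0.53 to 0.23 for Mki67, -0.44 to 0.41 for Ccnb1, -0.37 to 0.06 for Ccnb2, -0.66 to 0.11 for Cdc20, -0.56 to 0.16 for Plk1, -0.42 to 0.17 for Aurkb, -0.46 to 0.63 for Birc5, -0.56 to 0.24 for Tubb4b and -0.04 to 0.34 for Lbr. Between ages in CD11c+, Cdc20 was 0.28 with DESeq2 and with RLE, 0.12 with limma-voom, 0.61 with library totals, 2.45 with homeostatic scaling, 0.37 without a filter and 0.23 in the fit of all 10 libraries. Homeostatic scaling, with the median of all genes at 2.45, gave Tubb4b 1.53 and Lbr 1.76. With 1 library left out, Cdc20 ran from -0.39 to 0.74 and Hmgb2 from -0.24 to 0.22. Between ages in CD11c-, Smc4 was 0.04 with DESeq2 and with RLE, 0.45 with library totals, 0.31 with homeostatic scaling, 0.00 with the replicate block and in the fit of all 10 libraries, and -0.18 to 0.21 with 1 library left out. The cause was not tested for any of these. Where a group is left with 1 library, that library is assumed to vary like the others.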

Other observations

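Exon length is a property that the choice of members did not use. Across the 48 members, longer genes had higher P5 over 9-month values, with Spearman's rho of 0.58 in CD11c- and 0.40 in CD11c+, beside 0.24 and 0.13 over all genes tested. These are descriptions across genes measured in the same libraries. In CD11c- the 16 shortest members, up to 3215 bases, had a median log2 fold change of -1.91 and the 16 longest, from 5210 bases, one of -0.64. In CD11c+ the medians were 0.91 and 2.09. Among the 54 other mitosis genes rho was 0.18 in CD11c- and 0.21 in CD11c+. For the CD11c difference at P5 rho was 0.27 over the members, 0.46 over the 54 other mitosis genes and 0.07 over all genes. For that at 9 months the members' rho was 0.18, and for the interaction 0.00. Cks2, with 692 exon bases, was the most abundant member per kilobase in 9-mo CD11c+ at 52.9 CPM per kb, ahead of Hmgb2 at 44.6 CPM per kb, while in P5 CD11c+ Hmgb2 stood at 71.6 and Cks2 at 22.6 CPM per kb. Of the members, 13 share exon bases with another gene, and only for Ube2c do these exceed 20% of its length.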
